A study of Mus musculus with 16 samples.

Results

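The 8 genes described here handle cholesterol and sense lipids: Hmgcs1, Idi1 and Sqle of sterol synthesis, Srebf2 and Insig1 of sterol sensing, the lipid-sensing nuclear receptors Nr1h3 and Pparg, and the sterol exporter Abcg1. They were chosen by gene symbol, with earlier results of these data known. They are 8 of the 57010 genes in the count table, and all 8 passed the filter on low counts. The libraries were total RNA, depleted of ribosomal RNA, from cells of the olfactory bulb captured with magnetic beads against CD11b, a surface protein of microglia and other myeloid cells. The study asked how microglia of this region differ at an early age in a mouse model of amyloid disease. The genotypes were compared in 4 groups of 4 libraries each, WT females, WT males, APP-NL-G-F females and APP-NL-G-F males, all from mice at 2 months of age with no other treatment given in the labels. APP-NL-G-F mice, labelled KI and called knock-in in what follows, carry a humanised amyloid precursor protein gene with the Swedish, Arctic and Iberian changes at the mouse locus, so the protein is made under the native promoter and not by a transgene, and the WT mice are the C57BL/6J controls of the study. The letters f and m in the titles were read as female and male. The labels do not say whether a library is 1 animal or a pool, so p-values measure the spread between these libraries.

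Cells make cholesterol through the mevalonate pathway, whose genes are switched on by the transcription factor SREBP2 when membrane sterol is low. When sterol is plentiful, INSIG proteins hold SREBP2 and its escort SCAP in the endoplasmic reticulum, while oxysterols activate the liver X receptors, which induce the exporters ABCA1 and ABCG1. Microglia take up lipid from myelin and dying cells, and PPARG, a receptor for fatty acids, is known for its part in lipid uptake, storage and the restraint of inflammatory genes in macrophages.

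The libraries held 9052932 to 18117286 counts, with a median of 11926833, so that 1 count was worth 0.0562 to 0.116 CPM, the unit used here for counts scaled to a common library total with TMM factors. The cells carried the markers of microglia, with means over the 16 libraries of 5665 CPM for Csf1r, 3177 CPM for Cx3cr1, 1589 CPM for P2ry12, 821 CPM for Sall1 and 622 CPM for Tmem119. None of these 5 markers passed the FDR between genotypes, with log2 fold changes of -0.02, 0.06, 0.07, 0.06 and 0.01 in that order. Markers of other cells were present at lower levels. The 6 astrocyte markers summed to 527 to 1049 CPM for WT and 439 to 714 CPM for knock-in libraries. The 6 border macrophage markers summed to 410 to 709 CPM for WT and 542 to 861 CPM for knock-in libraries. The 6 neuron markers summed to 220 to 344 CPM for WT and 287 to 430 CPM for knock-in libraries. No marker of the 11 lists was at 0 in all libraries.

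The following promoter windows are shown for the sterol genes and for Pparg, the genes the comparisons turn on, because the searched motifs are those of the regulators of this pathway. RefSeq windows from 250 bases before to 50 bases after a start site (build GRCm38.p6, both strands searched) were found for 6 of the 8 genes, 9 windows in all. The searched letters were TCACNCCAC, a sterol regulatory element bound by SREBP, CCAAT, bound by NF-Y, a liver X receptor element, which is a direct repeat of AGGTCA with 4 bases between, and a PPAR element, the same repeat with 1 base between. No matches in the member windows overlapped. Capitals mark TCACNCCAC, CCAAT or its reverse complement ATTGG. The windows lie at chr13:119690101-119690400 on the + strand for Hmgcs1, chr13:8885356-8885655 on the + strand for Idi1, chr15:82147019-82147318 on the + strand for Srebf2, chr5:28071162-28071461 on the + strand for Insig1 and chr6:115421816-115422115 on the + strand for the Pparg window with the most CCAAT letters of its 3.
Hmgcs1: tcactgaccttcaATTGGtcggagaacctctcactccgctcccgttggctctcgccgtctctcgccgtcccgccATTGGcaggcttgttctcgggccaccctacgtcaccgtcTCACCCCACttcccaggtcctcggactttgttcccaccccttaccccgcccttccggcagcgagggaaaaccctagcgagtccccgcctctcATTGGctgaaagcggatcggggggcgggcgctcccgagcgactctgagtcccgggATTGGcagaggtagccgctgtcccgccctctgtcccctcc
Idi1: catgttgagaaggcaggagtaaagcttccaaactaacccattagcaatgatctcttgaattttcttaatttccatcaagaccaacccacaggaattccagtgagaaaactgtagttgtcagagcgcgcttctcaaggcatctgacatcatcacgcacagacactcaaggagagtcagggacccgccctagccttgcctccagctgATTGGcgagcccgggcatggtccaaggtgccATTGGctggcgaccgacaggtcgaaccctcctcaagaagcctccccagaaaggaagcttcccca
Srebf2: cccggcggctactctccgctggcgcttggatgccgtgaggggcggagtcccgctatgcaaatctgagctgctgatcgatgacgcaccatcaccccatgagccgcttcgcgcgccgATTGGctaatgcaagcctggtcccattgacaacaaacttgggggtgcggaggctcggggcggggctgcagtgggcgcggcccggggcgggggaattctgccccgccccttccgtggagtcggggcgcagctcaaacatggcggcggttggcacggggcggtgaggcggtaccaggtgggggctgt
Insig1: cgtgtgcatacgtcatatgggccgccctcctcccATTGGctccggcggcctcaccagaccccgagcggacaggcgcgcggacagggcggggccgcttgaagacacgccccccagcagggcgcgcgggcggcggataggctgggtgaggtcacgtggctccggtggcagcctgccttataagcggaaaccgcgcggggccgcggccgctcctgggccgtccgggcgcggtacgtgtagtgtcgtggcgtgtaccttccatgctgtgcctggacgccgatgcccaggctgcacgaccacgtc
Pparg: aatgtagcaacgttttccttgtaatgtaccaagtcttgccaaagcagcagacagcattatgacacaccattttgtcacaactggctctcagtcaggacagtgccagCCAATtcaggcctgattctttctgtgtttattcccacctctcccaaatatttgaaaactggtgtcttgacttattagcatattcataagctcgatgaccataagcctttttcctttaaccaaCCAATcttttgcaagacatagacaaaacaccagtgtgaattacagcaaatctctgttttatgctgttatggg
In Hmgcs1 the sterol regulatory element TCACCCCAC began 137 bases upstream of the start site on the gene's strand, with ATTGG at 237, 176 and 45 bases upstream. Idi1 had ATTGG at 45 and 14 bases upstream, Srebf2 at 135 and Insig1 at 216, and the Pparg window had CCAAT at 144 and 22 bases upstream. TCACNCCAC was in 408 of 32851 windows (1.24%), in 1 of the 9 member windows and in a window of 0 of the 50 related lipid genes that have one. CCAAT was in 37.4% of all windows and in 6 of the 9. The liver X receptor letters were in 0.0152% and the PPAR letters in 0.0396% of all windows, and in none of the 9. A match is a description of letters and not of binding.

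Compared per length of exon, the 8 genes spanned a wide range of levels. Abcg1 was the most abundant at 31.0 ± 2.33 CPM per kb (SD, n = 16), followed by Hmgcs1 at 7.57 ± 0.674, Srebf2 at 5.69 ± 0.447 and Insig1 at 4.16 ± 0.610 CPM per kb. The other members lay lower, with Pparg at 0.731 ± 0.224, Idi1 at 0.640 ± 0.148, Sqle at 0.374 ± 0.0593 and Nr1h3 at 0.294 ± 0.0876 CPM per kb. The ranges over the 16 libraries did not overlap between Abcg1 and Hmgcs1, Hmgcs1 and Srebf2, or Insig1 and Pparg, whereas those of Srebf2 and Insig1, Pparg and Idi1, Idi1 and Sqle, and Sqle and Nr1h3 did. This order depends on the lengths used, the union of exons over all annotated transcripts. In mean CPM, Srebf2 (53.2) stood above Hmgcs1 (39.9) and Sqle (3.32) above Idi1 (2.27). Among related genes per length, the liver X receptor Nr1h2 was 53.6 ± 18.5 times its paralogue Nr1h3, and Ppard was 9.35 ± 4.62 times Pparg. By these counts Nr1h3 and Pparg were each the lesser form, though reads of Nr1h3 and of genes overlapping it may not be told apart. Abca1, the exporter to lipid-poor apolipoproteins, was 3.17 ± 0.168 times Abcg1, while Srebf2 and Srebf1 were near parity at a ratio of 0.982 ± 0.118. Insig1 was 1.53 ± 0.303 times Insig2, with a mean of 1.70 for WT and 1.36 for knock-in libraries.

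**Figure D1:**
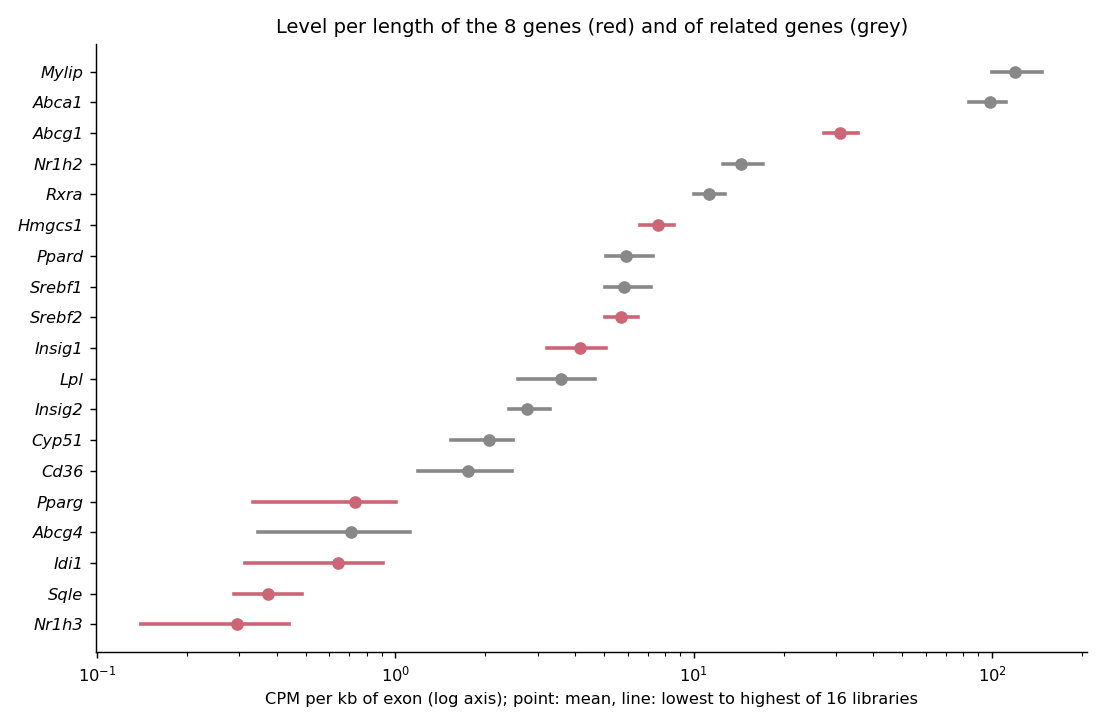
Level per length of the 8 genes (red) and of related lipid genes (grey), in CPM per kb of exon on a log axis; points are means and lines run from the lowest to the highest of 16 libraries. Abcg1 stands at 31.0 CPM per kb and Nr1h3 at 0.294 CPM per kb.

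Between genotypes, Hmgcs1, Idi1, Sqle, Srebf2, Nr1h3 and Abcg1 did not pass the test, Pparg was higher in the knock-in libraries and Insig1 was slightly lower. By the thresholds of the study, 0.1 on the false discovery rate (FDR) and 0.5 on the absolute log2 fold change, 1 of the 8 genes was called, Pparg, beside 8.64% of all 18227 genes tested. At the FDR alone 2 of the 8 passed, Pparg and Insig1, beside 14.8% of all genes, so the count for these 8 genes was near the background. At an unadjusted p below 0.05 the same 2 genes stood beside 24.1% of all genes. In none of the 8 were the ranges of the WT and knock-in libraries apart, beside 1.29% of all genes. The median log2 fold change was 0.07 over the 8 genes and -0.0014 over all genes. The test was edgeR's quasi-likelihood test with sex as a term and Benjamini-Hochberg adjustment, and intervals are 95%.

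**Figure D2:**
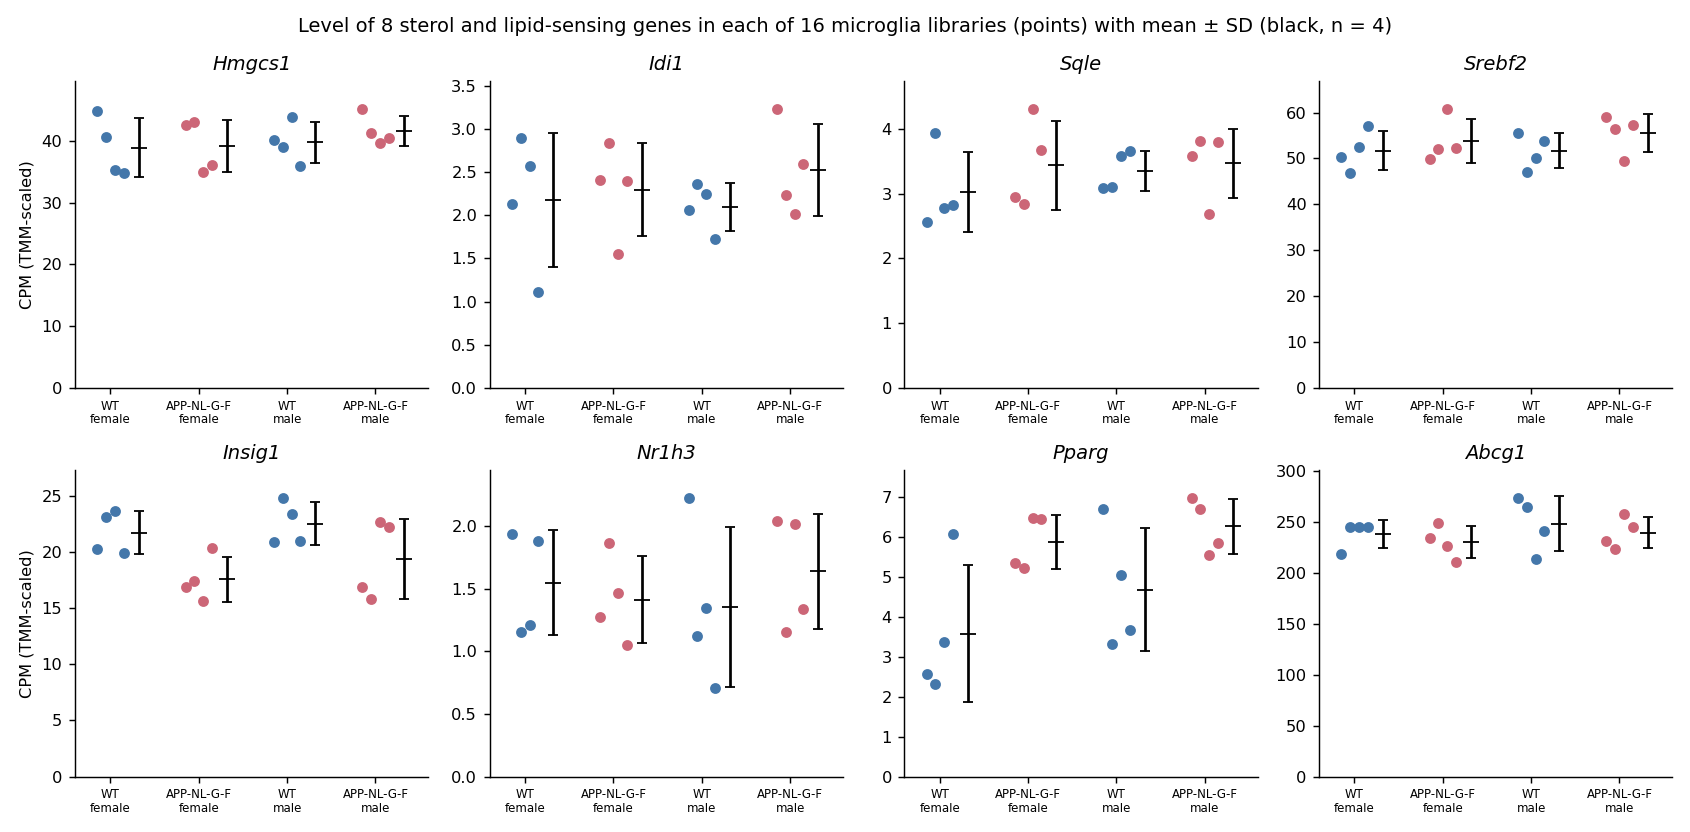
CPM of each of the 8 genes in the 4 groups, with 1 point per library and the mean ± SD of 4 libraries in black; every axis starts at 0. Pparg spans 2.31 to 6.68 CPM for WT and 5.22 to 6.97 CPM for knock-in libraries, and all 8 panels show overlapping groups.

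Hmgcs1 encodes the cytosolic synthase that makes HMG-CoA, the entry to the mevalonate pathway, and lies at chr13:120151915-120170470 (GRCm39, + strand). It was at 34.9 to 44.8 CPM with a median of 39.6 for WT libraries and at 35.0 to 45.2 CPM with a median of 40.8 for knock-in libraries, on 351 to 717 counts. The groups overlapped almost wholly. Its log2 fold change of 0.04 (SE 0.06, interval -0.10 to 0.17, edgeR FDR 0.781) did not pass the test.

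Idi1, the isomerase that interconverts the 5-carbon building blocks of sterols (chr13:8935537-8942487, + strand), was at 1.11 to 2.89 CPM with a median of 2.18 for WT and 1.55 to 3.23 CPM with a median of 2.40 for knock-in libraries. It rested on 13 to 42 counts, and its log2 fold change of 0.18 had an interval of -0.21 to 0.56 (edgeR FDR 0.621). Sqle, the squalene epoxidase of the first oxygen-dependent step (chr15:59186869-59203043, + strand), was at 2.56 to 3.93 CPM with a median of 3.09 for WT and 2.69 to 4.31 CPM with a median of 3.62 for knock-in libraries. Its log2 fold change was 0.13 with an interval of -0.15 to 0.41 (edgeR FDR 0.622).

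The wider synthesis pathway held no call. Of 20 sterol synthesis genes, Hmgcs1, Idi1 and Sqle included, 17 had a log2 fold change above 0, beside 49.6% of all genes. Their median was 0.08 and their range -0.11 to 0.30. Of the 20, 0 passed an edgeR FDR of 0.1, beside 14.8% of all genes, and 2 had an unadjusted p below 0.05, beside 24.1%. Cyp51, a demethylase of lanosterol, had a log2 fold change of 0.09 (interval -0.10 to 0.27). In females 14 of the 20 lay above 0, with a median of 0.03, and in males 17, with a median of 0.11. Signs of genes measured in the same libraries are not independent. The 20 genes summed to 192 to 218 CPM for WT and 201 to 237 CPM for knock-in libraries, so the groups overlapped. An exact two-sided permutation of genotype within sex gave p = 0.105 for this sum.

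Srebf2 encodes SREBP2, the activator of the pathway, at chr15:82031382-82093201 on the + strand. It was at 46.9 to 57.1 CPM with a median of 51.4 for WT and at 49.4 to 60.8 CPM with a median of 54.4 for knock-in libraries, of which 3 lay above the highest WT library. The log2 fold change was 0.08 (SE 0.06, interval -0.04 to 0.20, edgeR FDR 0.418) and did not pass the test. A short unconfirmed transcript, Gm49502, lies inside Srebf2 on its strand and was at 0.749 CPM for WT and 1.83 CPM for knock-in libraries on 2 to 33 counts, with a log2 fold change of 1.28 (SE 0.29, edgeR FDR 0.00861). Reads of the host and of Gm49502 may not be told apart, and Gm49502 was chosen after its values were seen. The SREBP partners and processing genes as a list had 0 of 7 tested genes at an edgeR FDR below 0.1 and 0 at an unadjusted p below 0.05, with a median log2 fold change of 0.08.

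Insig1, the sterol-dependent anchor of SCAP and itself a target of SREBP, lies at chr5:28276315-28283668 on the + strand. In WT females its level was 20.3, 23.1, 23.6 and 19.9 CPM in replicates 1 to 4, and in WT males 20.9, 24.9, 23.4 and 21.0 CPM. In knock-in females Insig1 was at 16.9, 17.4, 15.7 and 20.4 CPM, and in knock-in males at 16.9, 15.8, 22.7 and 22.2 CPM. Thus 5 of the 8 knock-in libraries lay below the lowest WT library, while male replicates 3 and 4 and female replicate 4 lay among the WT values. The log2 fold change was -0.26 (SE 0.08, interval -0.44 to -0.09), a level 0.834 times that of WT, with an edgeR FDR of 0.0550, under the threshold on FDR but short of that on size. An exact two-sided permutation of genotype within sex over 4900 splits gave p = 0.0110 for Insig1 (0.0441 adjusted over the 8 genes), where the smallest possible p was 0.000408. This permutation used the same libraries as the edgeR test. Apart from Insig1 and Pparg, the members had p from 0.176 for Srebf2 to 0.652 for Nr1h3 by this permutation. The edgeR FDR of Insig1 ranged from 0.0223 to 0.130 when libraries were left out in turn and passed above 0.1 in 7 of 16. It was 0.103 and 0.116 on omitting knock-in female replicates 1 and 3, and 0.127 and 0.130 on omitting knock-in male replicates 1 and 2. Among WT libraries it was 0.110 and 0.122 on omitting female replicates 2 and 3, and 0.126 on omitting male replicate 2. Within libraries 1 to 8 the difference in log2 CPM was -0.41 and within libraries 9 to 16 it was -0.13. Insig1 lies wholly within an antisense transcript, Gm26608, which was at 0.925 CPM and had a log2 fold change of -0.32 (edgeR FDR 0.570).

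Nr1h3 encodes liver X receptor alpha (chr2:91014394-91033417, - strand) and was the least abundant of the set, at 0.711 to 2.23 CPM with a median of 1.28 for WT and at 1.05 to 2.04 CPM with a median of 1.40 for knock-in libraries, on 7 to 31 counts. Its log2 fold change of 0.05 had an interval of -0.42 to 0.53 (edgeR FDR 0.926), and its sign turned when any of 4 libraries was left out. The transcript Gm13783, at 0 to 5 counts, lies inside Nr1h3 on its strand over 6873 bases. Acp2, on the other strand at 203 CPM, shares 280 bases with Nr1h3. Reads of Nr1h3 and of these genes may not be told apart, so the level of Nr1h3 is uncertain. The paralogue Nr1h2, the more abundant liver X receptor, was at 46.8 to 59.0 CPM for WT and 43.4 to 52.2 CPM for knock-in libraries, with a log2 fold change of -0.14 (SE 0.04, edgeR FDR 0.0367, 0.262 with no filter on low counts and 0.102 without knock-in male replicate 2). Rxrb, a heterodimer partner of these receptors, had one of -0.13 (edgeR FDR 0.0789), whereas Rxra had -0.08 (edgeR FDR 0.379). Of the 9 genes of the receptor list beside Nr1h3 and Pparg, 2 were lower at an edgeR FDR below 0.1, beside 14.8% of all genes at that FDR. In this list 0 passed both edgeR thresholds, beside 8.64% of all genes, and 3 had an unadjusted p below 0.05, beside 24.1%. DESeq2 and limma voom called no gene of the synthesis, processing or receptor lists between genotypes. The edgeR log2 fold change largest in size in these lists was 0.355, for Ppara, under the threshold of 0.5. The absence of calls therefore does not bear on the FDR of Nr1h2 and Rxrb.

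Pparg encodes a fatty acid receptor that pairs with RXR on DNA and lies at chr6:115337675-115468268 on the + strand. In WT females Pparg was at 2.56, 2.31, 3.36 and 6.07 CPM in replicates 1 to 4, and in WT males at 6.68, 3.32, 5.04 and 3.66 CPM. In knock-in females it was at 5.35, 5.22, 6.46 and 6.44 CPM and in knock-in males at 6.97, 6.70, 5.54 and 5.83 CPM. All 8 knock-in libraries lay above the WT median of 3.51 CPM and 2 above the highest WT library, and the overlap came from WT female replicate 4 and WT male replicate 1, with WT male replicate 3 just under the lowest knock-in value. The spread was larger among WT libraries, with a coefficient of variation of 39.2% against 10.9%. Pparg rose by a log2 fold change of 0.57 (SE 0.18, interval 0.19 to 0.95), a level 1.48 times that of WT, with an edgeR FDR of 0.0562. The exact two-sided permutation of genotype within sex gave p = 0.0110 for Pparg (0.0441 adjusted over the 8 genes). Within libraries 1 to 8 the difference in log2 CPM was 0.80 and within libraries 9 to 16 it was 0.44.

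The Pparg call was near its threshold. Leaving out 1 library moved the log2 fold change of Pparg between 0.49 and 0.72, and the edgeR FDR passed above 0.1 in 8 of 16 cases. It was 0.108 and 0.103 on omitting knock-in female replicates 3 and 4, and 0.108 and 0.102 on omitting knock-in male replicates 1 and 2. Among WT libraries it was 0.124, 0.106 and 0.110 on omitting female replicates 1, 2 and 3, and 0.120 on omitting male replicate 2. In bulk samples fewer cells of a type and less RNA per cell cannot be told apart.

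Abcg1 passes sterol to lipoprotein particles and lies at chr17:31276649-31336969 on the + strand. It was at 213 to 274 CPM with a median of 245 for WT and 211 to 258 CPM with a median of 233 for knock-in libraries, on 1904 to 4701 counts. The log2 fold change of -0.05 (SE 0.05, interval -0.16 to 0.06, edgeR FDR 0.621) gave the narrowest interval of the set. Its partner exporter Abca1 had -0.06 (interval -0.18 to 0.05), Apoe, the main brain apolipoprotein, -0.04 (interval -0.26 to 0.17) and Mylip, a ubiquitin ligase and liver X receptor target, -0.09 (interval -0.26 to 0.07). Abcg4, a related sterol transporter, was the only other gene of the 70 listed pathway genes to be called, at 2.06 to 5.23 CPM for WT and 3.27 to 6.63 CPM for knock-in libraries, with a log2 fold change of 0.57 (SE 0.19, edgeR FDR 0.0690). That call was lost on omitting any of the same 8 libraries as for Pparg, with an edgeR FDR for Abcg4 of up to 0.146.

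**Figure D3:**
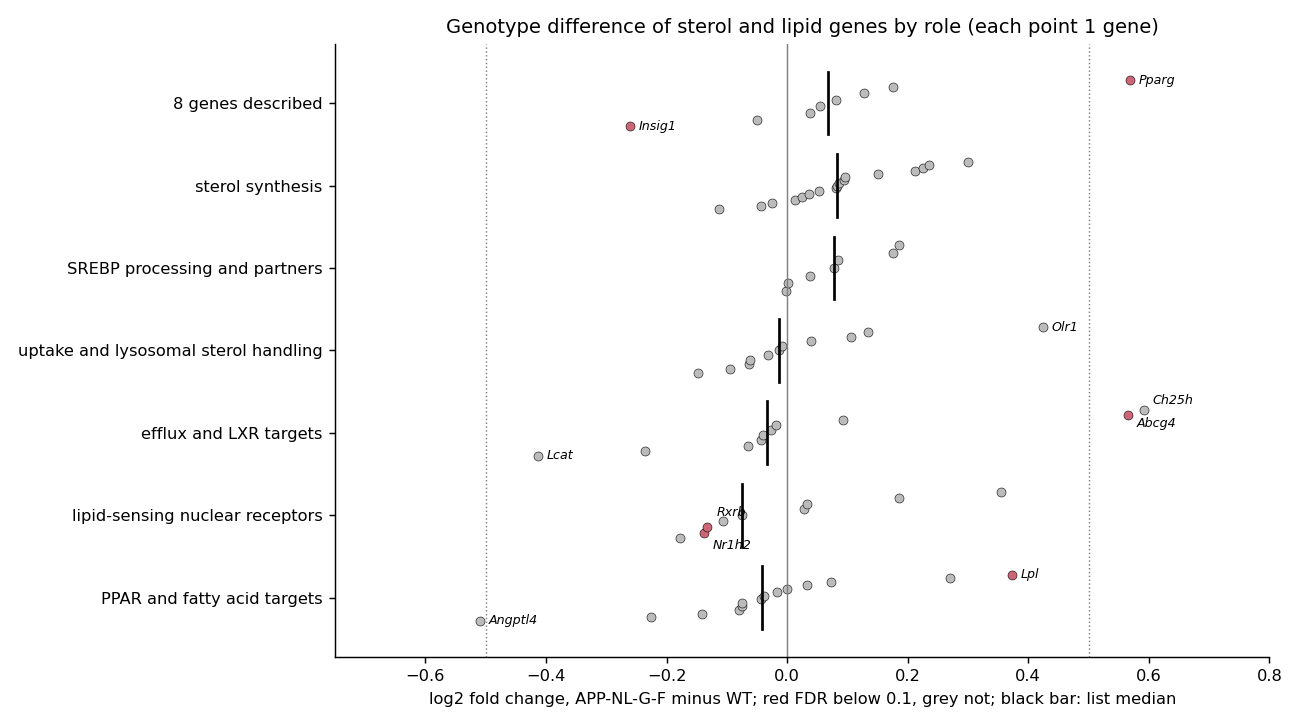
Genotype difference of the 8 genes and of the 68 tested genes of 6 lipid lists, as log2 fold change of knock-in minus WT; red points have an edgeR FDR below 0.1, black bars are list medians and dotted lines stand at ±0.5. Pparg and Abcg4 lie beyond 0.5 at that FDR, and the sterol synthesis median is 0.08.

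Of the 68 tested pathway genes, 1 was called, beside 8.64% of all genes. At the FDR alone 4 passed, Abcg4, Lpl, Nr1h2 and Rxrb, beside 14.8% of all genes. Lpl, the lipase that frees fatty acids from lipoproteins, was at 31.4 to 54.0 CPM for WT and 40.3 to 57.2 CPM for knock-in libraries, with a log2 fold change of 0.37 (SE 0.09, edgeR FDR 0.0129). Of the 14 tested PPAR and fatty acid targets, Lpl alone passed the edgeR FDR, beside 14.8% of all genes. An unadjusted p below 0.05 was reached by 3 of the 14, beside 24.1% of all genes. Above 0 lay 5 of the 14, beside 49.6% of all genes, and the median log2 fold change was -0.04. Plin2, a lipid droplet coat protein, had -0.23 (interval -0.44 to -0.01, edgeR FDR 0.181) and Angptl4, an inhibitor of lipoprotein lipase, had -0.51 (SE 0.24, edgeR FDR 0.191), both named after their values were seen. The scavenger receptor Cd36, of the uptake list, had 0.11 (interval -0.11 to 0.33). Srebf1, the paralogue of Srebf2, had 0.04 (interval -0.11 to 0.19).

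The neuron markers moved with Pparg and Abcg4. Between genotypes they had 3 of 6 genes at an FDR below 0.1 and 0 called, beside 14.8% and 8.64% of all genes, with a median log2 fold change of 0.35. The oligodendrocyte markers had 2 of 6 and 1 called, with a median of 0.38 and a summed level of 186 to 372 CPM for WT and 229 to 356 CPM for knock-in libraries. Over the 16 libraries the log2 level of Pparg went with the log2 sum of the neuron markers, with Pearson's r of 0.83 (permutation p = 7e-05, adjusted over 33 relations 0.00115) and Spearman's rho of 0.76 (adjusted permutation p 0.0185). Pearson's r was 0.66 without the 2 farthest libraries, 0.76 within WT and 0.73 within knock-in libraries, and 0.94 in libraries 1 to 8 and 0.46 in libraries 9 to 16. For Abcg4 r was 0.92 (permutation p = 1e-05, the smallest these draws can give, adjusted 0.00033) and rho 0.86, with 0.85 without the 2 farthest libraries, 0.92 within WT and 0.80 within knock-in, and 0.96 and 0.81 in the lower and higher library numbers. For Insig1 r was -0.66 (permutation p = 0.00579, adjusted 0.0382) and rho -0.65 (adjusted permutation p 0.0783), with -0.74 without the 2 farthest libraries, -0.24 within WT and -0.57 within knock-in, and -0.85 and -0.71 in the lower and higher library numbers. Pparg also ran against the astrocyte markers, with r of -0.67 (adjusted permutation p 0.0382) and rho of -0.52 (adjusted permutation p 0.229), where r was -0.20 without the 2 farthest libraries. The oligodendrocyte markers had r of -0.07 with Pparg and -0.05 with Abcg4 (adjusted permutation p 0.885 for each), and within WT libraries r of -0.78 with each gene. The 5 oligodendrocyte precursor markers had 0 genes at an FDR below 0.1 and summed to 16.5 to 23.8 CPM for WT and 20.2 to 28.05 CPM for knock-in libraries. They ran against Insig1 with r of -0.66 (adjusted permutation p 0.0382) and rho of -0.52 (adjusted permutation p 0.229), where r was -0.45 without the 2 farthest libraries, -0.35 within WT, -0.59 within knock-in, and -0.77 and -0.63 in the lower and higher library numbers. The permutations of these correlations moved libraries across genotype and sex. A genotype difference shared by a gene and the markers can therefore lower their p-values. The part of these cells in the differences was not tested.

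**Figure D4:**
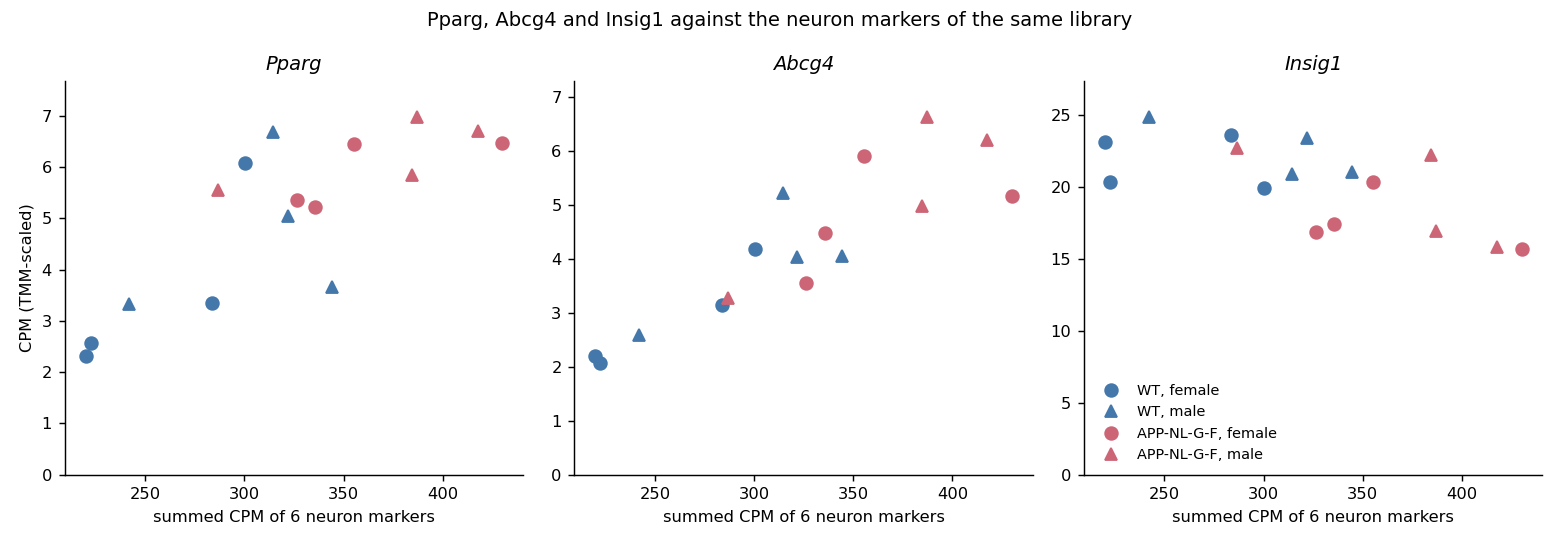
CPM of Pparg, Abcg4 and Insig1 in each of the 16 libraries against the summed CPM of 6 neuron markers in the same library, with WT in blue, knock-in in red, females as circles and males as triangles. Pparg and Abcg4 climb with the markers (r of 0.83 and 0.92 on the log2 level) and Insig1 runs the other way (r of -0.66).

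Within sexes the directions of Pparg and Insig1 were shared. In females the log2 fold change of Pparg was 0.71 (interval 0.16 to 1.26, edgeR FDR 0.123) and in males 0.43 (interval -0.11 to 0.97, edgeR FDR 0.538). Insig1 had -0.30 (interval -0.56 to -0.05) in females and -0.22 (interval -0.47 to 0.03) in males. Of the 8 genes, 0 were called in females, beside 7.15% of all genes, with 2 at an unadjusted edgeR p below 0.05 beside 20.8%, and 0 in males, beside 0.252% of all genes, with 0 at that p beside 11.7%. DESeq2 and limma voom each called 0 in males and 1 in females, Pparg, as did edgeR with no filter on low counts (Pparg FDR 0.0133) and without WT female replicate 4, where Pparg had a log2 fold change of 1.10 (FDR 0.00848). In a direct test of the difference between the sexes, 0 of the 8 were called, beside 0.0274% of all genes, and 0 had an unadjusted edgeR p below 0.05 beside 5.94%, with DESeq2 also calling 0. For Pparg that difference was 0.28 (interval -0.49 to 1.04) and for Insig1 -0.09 (interval -0.44 to 0.27). The other 6 genes had intervals that include 0 in both sexes. Nr1h3 had opposite signs, with -0.15 (interval -0.82 to 0.52) in females and 0.27 (interval -0.42 to 0.95) in males, and the difference of -0.42 had an interval of -1.38 to 0.54. Abcg1 had -0.05 in each sex, and Srebf2 had 0.05 in females and 0.11 in males. Of the synthesis genes, Hmgcs1 had 0.01 and 0.07, Idi1 0.10 and 0.26, and Sqle 0.20 and 0.06, females given first.

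**Figure D5:**
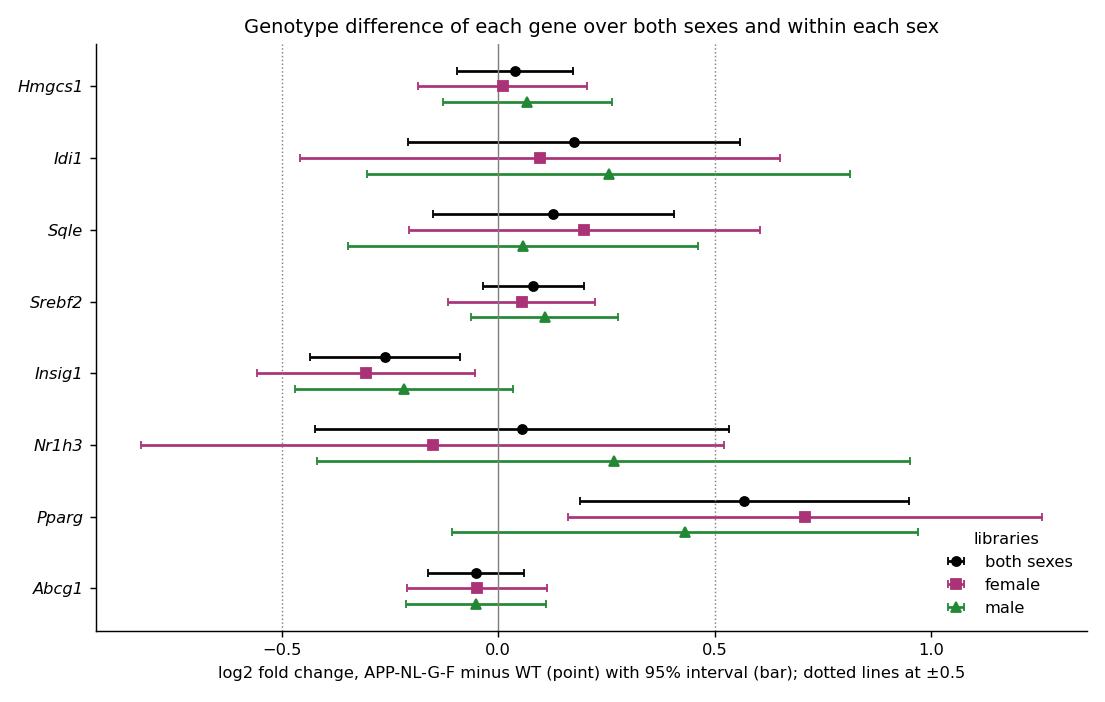
Log2 fold change of knock-in minus WT for each gene over both sexes (black), in females (purple) and in males (green), with 95% intervals as bars and dotted lines at ±0.5. The Pparg intervals over both sexes (0.19 to 0.95) and in females (0.16 to 1.26) lie above 0, and that in males (-0.11 to 0.97) includes it.

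The library numbers run from 1 to 16, and replicates 1 and 2 of each group are numbers 1 to 8 and replicates 3 and 4 are numbers 9 to 16. The labels do not say what the numbers mark. Between these sets 0 of the 8 genes were called, beside 0.730% of all genes, 1 had an unadjusted edgeR p below 0.05 beside 15.5%, and DESeq2 called 0. That gene was Hmgcs1, at 39.0 to 45.2 CPM in libraries 1 to 8 and 34.9 to 43.9 CPM in libraries 9 to 16, with a log2 difference of -0.16 (interval -0.27 to -0.05, edgeR FDR 0.121). Idi1 had -0.30 (interval -0.66 to 0.07). With this split as a term, the genotype effect of Pparg was 0.57 (edgeR FDR 0.0526) and that of Insig1 -0.27 (edgeR FDR 0.0390).

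Among the 8 genes, 28 pairs were correlated over the 16 libraries and 0 passed an adjusted permutation p of 0.05 by Pearson's r. Srebf2 and Pparg came closest, with r of 0.69 (permutation p = 0.00348, adjusted 0.0974) and rho of 0.73 (adjusted permutation p 0.0538), and r was 0.64 without the 2 farthest libraries, 0.84 in libraries 1 to 8 and 0.35 in libraries 9 to 16. Hmgcs1 and Idi1, neighbours in the pathway, had r of 0.61 (permutation p = 0.00969, adjusted 0.136) and rho of 0.54, and r was 0.35 without the 2 farthest, 0.35 in libraries 1 to 8 and 0.48 in libraries 9 to 16. Srebf2 and Insig1 had r of -0.60 (permutation p = 0.0145, adjusted 0.136) and rho of -0.55, and r was -0.40 without the 2 farthest libraries, -0.69 and -0.78 in the lower and higher library numbers.

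The genes most like each member over the 16 libraries were picked by Pearson's r of log2 CPM among 18226 genes, as a description. Idi1 was most like Cyp51 of the same pathway, with r of 0.90. Insig1 was most like Ncl, a nucleolar protein, with r of 0.91, followed by Gm2814 and D730003I15Rik with r of 0.90 each. Srebf2 was most like Sugp2, Adgrl1 and Celsr2, with r of 0.92, 0.90 and 0.90, and Pparg was most like the predicted genes Gm42853, Gm4258 and Gm42617, with r of 0.95, 0.94 and 0.94. Hmgcs1 was most like Ndufa12, a subunit of respiratory complex I, with r of 0.88, followed by Lztfl1 and Dynlrb1. Sqle was most like Zfp707, Pdcd11 and Lrrc1, with r of 0.88 to 0.84, and Nr1h3 like Gm28289, Ccdc71l and Fem1c, with r of 0.81 to 0.76. Abcg1 was most like ENSMUSG00000119985, ENSMUSG00000121018 and Tkt, a transketolase, with r of 0.80 each.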

How the data were processed

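Cells of the olfactory bulb were captured with CD11b beads and total RNA libraries were made with the Takara SMART-Seq Stranded kit. The deposited values are raw read counts per gene, which the authors made by alignment with STAR to GRCm39 with a human App sequence added, and the strand setting of the counting is not given in the sources used here. The table has 16 libraries, 4 per group, and 9052932 to 18117286 counts per library.

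A gene was kept where 8 or more libraries held 5 or more counts, which left 18227 of 57010. Genotype was tested with edgeR 4.0.16 (quasi-likelihood, TMM scaling, sex as a term) in R 4.3.3, and a gene was called where the FDR was under 0.1 and the log2 fold change beyond 0.5 in size. A 4-group fit gave the effects within each sex and their difference. Single genes were also tested by exact permutation of genotype within sex (4900 splits). Correlations were tested by 100000 permutations over all 16 libraries, with neither genotype nor sex held fixed. CPM per kb used exon lengths of gencode vM39, to which 97.3% of rows matched. That is a later release than the authors used, so the lengths can include exons that were not counted. Log2 CPM used a prior count of 2. Members and lists were chosen with earlier results of these data known. The text names the 8 members, 10 set genes of the lists (some of which, and a marker, are not reported here), list genes called between genotypes or library sets, and the 3 genes most like each member; paralogues in ratios, Rxrb and overlapping genes were added after their values were seen. Alternatives were RLE size factors, upper quartile scaling, no filter, 10 counts in all libraries, DESeq2 1.42.0, limma 3.58.1 voom, other thresholds, no sex term, a library-number term, a replicate block and leaving out each library. The fits were tested on simulated data.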

Additional observations from a re-analysis of the deposited data

Results flagged for a closer look

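Within groups of 4 libraries, 3 of 76 combinations of gene and group had 1 library whose gap to the next, as a share of the range, was above Dixon's critical value, and chance alone gives about 1 in 20. Abcg1 was lowest in WT female replicate 1, at 218 CPM against 245 CPM in the next library, a gap of 0.981 of the range. Nr1h2 was highest in WT female replicate 2, at 59.0 CPM against 53.4 CPM, a gap of 0.866 of the range. Rxra was highest in WT female replicate 1, at 86.5 CPM against 78.5 CPM, a gap of 0.876 of the range. Nr1d1, a lipid-list receptor that binds haem and belongs to the clock, differed between the sexes in its genotype effect, by -1.06 on the log2 scale (edgeR FDR 0.0942), being lower in APP-NL-G-F females at 9.78 CPM against 15.9 CPM in WT females, while males had 14.4 CPM against 11.3 CPM. That call was near its threshold. DESeq2 made it too (FDR 0.000533), but limma voom, upper quartile scaling and the filter of 10 counts in all libraries did not. With 1 library left out, it held only without APP-NL-G-F female replicate 4, APP-NL-G-F male replicate 1, or WT female replicate 3 or 4.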

How the results depend on the processing

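The 8 members kept the sign of their genotype effect in all alternatives that tested them and libraries left out, except Nr1h3. It turned to -0.0111, -0.0044, -0.0024 and -0.0404 without APP-NL-G-F male replicates 1 and 3 and WT male replicates 2 and 4, with a range of -0.04 to 0.19. The filter of at least 10 counts in all libraries left 7 members, without Nr1h3. The Pparg call held in 10 of 11 other settings (FDR 0.0091 to 0.0649) and was lost at an FDR of 0.05. Genes called between genotypes numbered 1574, and 830 with at least 10 counts in all libraries, 2692 at the FDR alone and 1101 to 2187 with libraries left out. Members called were 2 at the FDR alone, 0 at an FDR of 0.05 and 0 to 1 with libraries left out, and pathway genes 4, 0 and 0 to 2. Genes called between the library sets numbered 133, and 304 without a filter, 61 by DESeq2, 698 at the FDR alone, 60 at an FDR of 0.05 and 83 to 242 with libraries left out, with 83 without WT female replicate 4 and 242 without APP-NL-G-F male replicate 3. In females 1 member was called with no filter, by DESeq2 and by limma voom, and 0 to 1 with libraries left out.

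The labels do not say whether replicate numbers pair the samples, and they were not used as pairs in the main tests. Deviations of same-numbered libraries from their group means had r of -0.330 to 0.135, over 0.1 in 2 of 8 pairs. Of the 8, 2 matched their own number best. These values cannot exclude a pairing. With the replicate block 1562 genes and 1 member were called, and Pparg had 0.59 and Insig1 -0.27. Idi1, Sqle, Nr1h3 and Pparg rest on fewer counts than the other members, from 7 in 1 library for Nr1h3 to 86 for Pparg.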
